A study of Homo sapiens with 20 samples.

Results

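The ubiquitin-specific proteases (USPs) are a family of cysteine proteases that remove ubiquitin from other proteins. Of the listed protein-coding genes named USP followed by a number, with USP18 left out, 39 of 48 reached an FPKM, the count of fragments scaled to gene length and library size, of at least 1 in at least 2 of 20 libraries. These 39 are described here, out of 60483 genes listed and 15687 that passed the same filter. The RNA came from human multiple myeloma cells, a cancer of plasma cells, and the samples are labelled bone marrow. Cells had received indirubin-3'-monoxime (I3MO), an indirubin of a class known as kinase inhibitors and ligands of the aryl hydrocarbon receptor, or the vehicle DMSO. The I3MO groups were ANBL6BR, a form of the line ANBL6 labelled bortezomib resistant, and wild-type ANBL6, both at 5 µM, and the wild-type lines ARP1, RPMI8226 and U266, all at 10 µM. Each model had a DMSO group, and each of the 10 groups held 2 libraries. Dose cannot be told apart from the set of models. The length of treatment, how ANBL6BR was derived and whether bortezomib was in its culture are not given in the sources used here. Nothing says that replicates were separate cultures, so p-values measure only the spread between these libraries, which may be technical.

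Ubiquitin marks proteins for the proteasome, for sorting to the lysosome or for signalling. Ubiquitin ligases attach it, and deubiquitinases such as the USPs cut it off again. Plasma cells secrete large amounts of protein and lean on the proteasome, which is the target of bortezomib. USP7, also called HAUSP, keeps the ligase MDM2 from degradation, and MDM2 in turn marks p53 for degradation.

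Libraries held 12.11 to 20.31 M fragments, as worked out from the steps between FPKM values, and a member had between 0 and 8949 fragments in a library. Of 10 plasma cell markers, 8 were at 1 FPKM or more in all 20 libraries, SLAMF7 was in 6, and XBP1 was listed at 0 in all, which in a file without counts can be a failed estimate. Of 13 markers of other cell types, EPCAM reached 17.2 FPKM (1 FPKM or more in 8 libraries) and COL1A1 4.18 FPKM (in 4 libraries), and the other 11 stayed under 1 FPKM. Both ANBL6 I3MO libraries listed more genes above 0 (32668 and 28419) than any other library (20766 to 26588). The part of these differences in the results was not tested.

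The members just inside the filter were USP40, USP37 and USP46, with a second-highest FPKM of 1.02, 1.07 and 1.12. Just outside it were USP45, USP43 and USP54, with a second-highest FPKM of 0.878, 0.579 and 0.338. The remaining 6 genes outside it (USP6, USP26, USP29, USP41, USP44 and USP50) had a highest FPKM between 0.0106 and 0.171. In all 20 libraries 19 members were at 1 FPKM or more, among them USP1, USP5, USP7, USP14 and USP22. USP37 passed through the ANBL6BR DMSO libraries alone and USP46 through the ARP1 I3MO libraries alone. USP40 passed through the I3MO libraries of ARP1 and U266 alone. For these members the filter favoured a difference.

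USP7 (ENSG00000187555.13, chromosome 16, 8892094 to 8964514, minus strand, hg38) had 5.01 and 5.94 FPKM in U266 I3MO libraries against 8.68 and 8.83 FPKM in U266 DMSO libraries. The groups did not overlap, with a change of -0.59 ± 0.09 (limma adjusted p = 0.000253). Here and below a change is the difference of mean log2(FPKM + 1), I3MO minus DMSO unless stated, ± SE, with p adjusted by Benjamini-Hochberg over the 15687 tested genes and called under 0.05. In bulk RNA, fewer cells of a type and less RNA per cell cannot be told apart. Groups of 2 libraries often did not overlap, for more members than were called. Of the 39 members this held for 22 in U266, 19 in ANBL6BR, 25 in ANBL6, 24 in RPMI8226 and 32 in ARP1. Between ANBL6BR and ANBL6 in DMSO it held for 35. The share over all tested genes is not given here, so non-overlap is a description only.

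USP7 did not pass in the other models. ANBL6BR had 9.76 and 8.93 FPKM with I3MO against 9.93 and 10.8 FPKM with DMSO, a change of -0.14 (limma adjusted p = 0.346). ANBL6 had 16.4 and 15.9 FPKM with I3MO against 18.2 and 18.5 FPKM with DMSO, a change of -0.17 (limma adjusted p = 0.254). RPMI8226 had 7.15 and 8.27 FPKM with I3MO against 9.10 and 8.87 FPKM with DMSO, a change of -0.20 (limma adjusted p = 0.156). In these 3 models both I3MO libraries lay below both DMSO libraries. ARP1 overlapped, with 11.5 and 11.2 FPKM with I3MO against 12.4 and 11.3 FPKM with DMSO, a change of -0.06 (limma adjusted p = 0.700).

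The USP7 change was below 0 in 5 of 5 models, and the test of equal responses among the models passed (limma adjusted p = 0.0215). Across the 5 models the change was -0.23 ± 0.11, limma adjusted p = 0.337, and the difference of its responses, ANBL6BR minus ANBL6, was 0.04 ± 0.12, limma adjusted p = 0.921. With only the U266 libraries in the fit the U266 change of USP7 did not pass (-0.59, limma adjusted p = 0.0730). In ARP1 the USP7 change passed with median-ratio scaling (-0.32, limma adjusted p = 0.0441) and with GC content and length fitted out (-0.30, limma adjusted p = 0.0173).

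**Figure D1:**
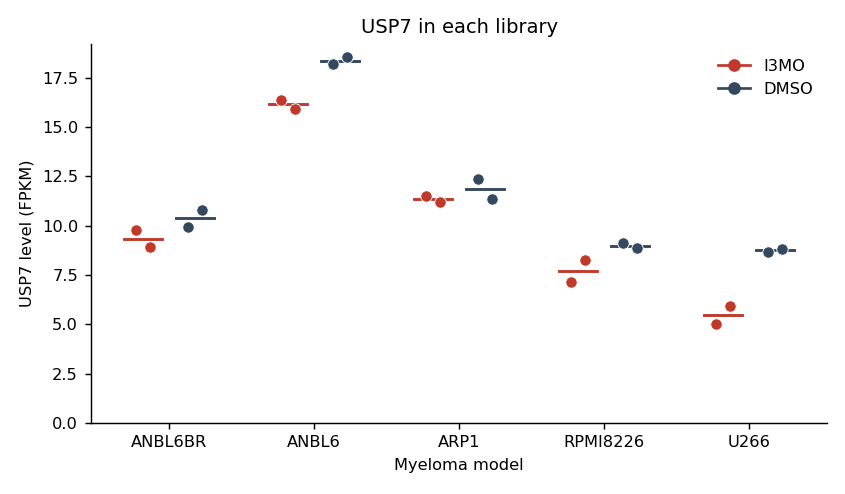
USP7 level in FPKM (y axis) by myeloma model (x axis), I3MO left of DMSO, with each point 1 library and each line the mean of 2 libraries. The U266 I3MO libraries, at 5.01 and 5.94 FPKM, are the lowest, and the ANBL6 DMSO libraries, at 18.2 and 18.5 FPKM, the highest.

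In DMSO, USP7 was highest in ANBL6, and then came ARP1, ANBL6BR, RPMI8226 and U266. Of the 10 pairs of models 7 differed. ANBL6 stood above each of the other 4, by 0.59 over ARP1 to 0.99 over U266 (limma adjusted p between 4.06e-07 and 5.61e-05). Neighbours in this order that did not differ beyond their spread were ANBL6BR and ARP1 (-0.18, limma adjusted p = 0.0941), ANBL6BR and RPMI8226 (0.19, limma adjusted p = 0.0748), and RPMI8226 and U266 (0.03, limma adjusted p = 0.767). Between ANBL6BR and ANBL6 the difference was -0.77 ± 0.09, limma adjusted p = 7.10e-06.

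FPKM levels of different genes were compared only after rescaling to merged exon length. On that scale USP7 ranked 1 of the 39 members in ANBL6 DMSO cells, with 68.1 ± 0.945 FPKM (SD, n = 2), 12.7% of their summed level. It ranked 7 in U266 I3MO cells with 20.3 ± 2.43 FPKM and 3 in U266 DMSO cells with 32.5 ± 0.384 FPKM (SD, n = 2 each). Merged exon lengths came from GENCODE 29, where 38 of the 39 members had another gene version. The part of this in the ranks was not tested.

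The member most like USP7 over the 10 group means of log2(FPKM + 1) was USP13 (Pearson r = 0.834), and then came USP39 (0.769) and USP33 (0.746). Least like it were USP35 (-0.86), USP51 (-0.616) and USP19 (-0.339). These describe 10 means that share 5 models, with no test. USP36, called higher in 3 models, had r = -0.0863, and the promoters of USP7, USP13 and USP36 are shown together as the member described first, the one most like it and the one with the broadest rise.

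The sequences are RefSeq's 250 bases before a transcription start on GRCh38.p14, 5′ to 3′ on the gene's strand, from the window nearest the annotated gene start. They lie at chr16:8963907-8964156 (minus strand) for USP7, chr3:179652790-179653039 (plus strand) for USP13 and chr17:78841440-78841689 (minus strand) for USP36. Capitals mark each match, on either strand, to the CCAAT box (CCAAT), the GC box (GGGCGG), the E2F motif (TTTCCCGC or TTTGGCGC), the ATF4 and CHOP element (TGATGNAA) or the core of the aryl hydrocarbon receptor element (GCGTG).
USP7: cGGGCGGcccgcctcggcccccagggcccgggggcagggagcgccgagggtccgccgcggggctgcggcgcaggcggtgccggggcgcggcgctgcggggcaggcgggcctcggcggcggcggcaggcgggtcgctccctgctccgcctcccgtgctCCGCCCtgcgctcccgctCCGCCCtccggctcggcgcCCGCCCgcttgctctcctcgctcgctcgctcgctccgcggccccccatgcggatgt
USP13: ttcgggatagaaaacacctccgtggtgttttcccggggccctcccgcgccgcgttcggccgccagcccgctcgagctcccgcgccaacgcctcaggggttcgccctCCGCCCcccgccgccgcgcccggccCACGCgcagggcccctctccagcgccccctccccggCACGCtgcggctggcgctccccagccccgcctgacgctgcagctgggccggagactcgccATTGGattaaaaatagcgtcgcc
USP36: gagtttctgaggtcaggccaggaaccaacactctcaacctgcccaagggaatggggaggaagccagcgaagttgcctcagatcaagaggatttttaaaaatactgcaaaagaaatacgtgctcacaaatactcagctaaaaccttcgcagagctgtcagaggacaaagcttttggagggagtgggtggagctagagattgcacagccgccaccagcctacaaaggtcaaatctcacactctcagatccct

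The USP7 window held 4 GC boxes and none of the other motifs, and that of USP13 held 1 GC box, 1 CCAAT box and 2 receptor cores. The USP36 window held no match, with a GC content of 49.2%, against 84.4% for USP7 and 74.4% for USP13. RefSeq lists 2 windows for USP36, 3 for USP7 and 1 for USP13, and only the nearest is described. RefSeq windows were found for 33 of the 39 members. Of these 27 held a GC box (81.8%, against 42.5% of all 34943 windows), 20 the receptor core (60.6%, against 32.2%) and 9 a CCAAT box (27.3%, against 32.0%). None held the E2F motif or the ATF4 and CHOP element, which 1.92% and 3.15% of all windows held. Members count with 1 window each, while all windows include further windows of a gene and genes of any level. The 2 shares are thus not like for like. The window used lay 30337 bases from the gene start for USP32 and 17518 bases for USP2. A match describes these letters only.

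The count of members called with I3MO differed from model to model, as did the share of all tested genes called. In U266 10 of 39 members were called, 5 higher and 5 lower, where 26.2% of all tested genes were called (10.5% higher and 15.8% lower). In ANBL6BR 4 were called, 2 higher and 2 lower, against 18.4% of all tested genes (10.0% higher and 8.4% lower). ANBL6 had 3 called, all lower, against 7.97% of all tested genes (4.1% higher and 3.87% lower). RPMI8226 had 4, 2 higher and 2 lower, against 14.8% (6.19% higher and 8.62% lower). ARP1 had 23, 16 higher and 7 lower, against 37.0% of all tested genes (23.1% higher and 13.9% lower). The share of members called was 59.0% in ARP1. In ANBL6 (7.69%) and U266 (25.6%) it was close to the background, and in ANBL6BR and RPMI8226 (10.3% each) it lay under it.

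The median change of the members was -0.01 in U266, -0.02 in ANBL6BR, -0.12 in ANBL6, -0.04 in RPMI8226 and 0.27 in ARP1. Over all tested genes it was -0.02, 0.00, 0.01, -0.01 and 0.03 in the same order of models. Of the members 8 were called in no model, 21 in 1 model, 7 in 2 models and 3 (USP20, USP22 and USP36) in 3 models, where the shares of all tested genes were 35.8%, 38.0%, 16.1% and, for 3 or more models, 10.1%. USP20, USP22, USP28 and USP48 were called in opposite directions in different models, as were 5.9% of all tested genes. The change was below 0 in all 5 models for 7 members (7.76% of all tested genes) and above 0 in all 5 for 4 (9.92% of all tested genes).

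The test of equal responses among the 5 models passed for 23 of 39 members, where 44.5% of all tested genes passed. Across the 5 models limma called 0 of 39 members, against 0.0% of all tested genes. There 4 members (USP5, USP13, USP21 and USP39) had an unadjusted limma p under 0.05, and limma voom on the recovered fragments called 0, with 6 at an unadjusted p under 0.05.

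**Figure D2:**
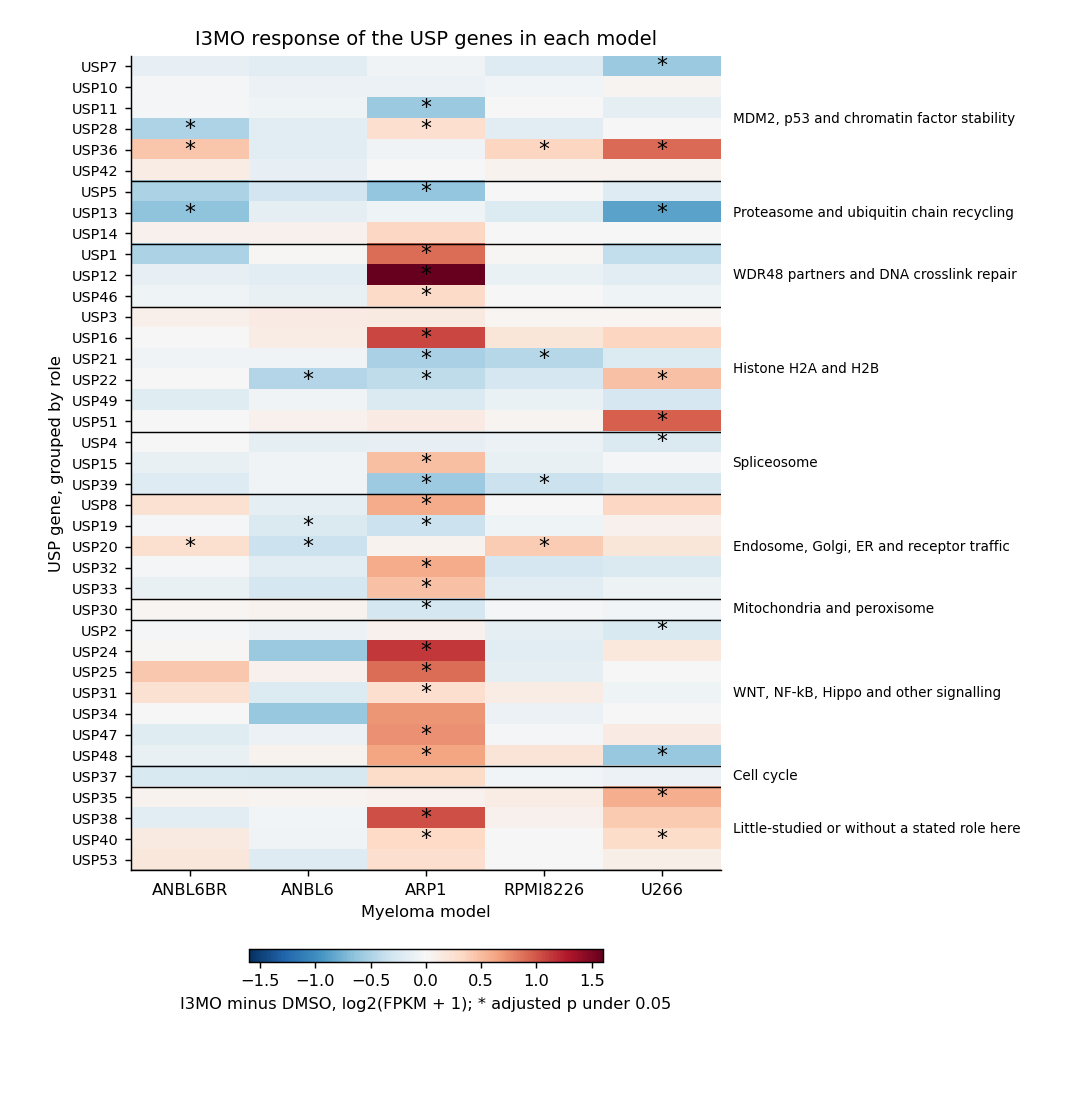
Change with I3MO, I3MO minus DMSO on the log2(FPKM + 1) scale (colour), of the 39 members (rows, grouped by role) in the 5 models (columns), with a star where the adjusted p is under 0.05. The ARP1 column holds 23 stars, and USP36 has stars in ANBL6BR, RPMI8226 and U266.

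The split between higher and lower moved with the scaling. With median-ratio scaling, where 38 members were tested, ARP1 had 12 higher and 13 lower, ANBL6BR 1 higher and 3 lower, RPMI8226 2 higher and 1 lower, and U266 6 higher and 3 lower. In ARP1 the change followed the GC content of the transcripts, with a Spearman rho of -0.792 over the 39 members and -0.581 over 6409 genes, described across genes, which are not independent replicates. Of the 20 members at or under the median GC content of 44.5%, 13 rose in ARP1 and 0 fell, and of the 19 above it 3 rose and 7 fell. The differences between the 2 ARP1 replicates followed GC content too, with rho of 0.7 in I3MO and -0.687 in DMSO libraries. Between I3MO replicates of the other models this rho was 0.53 in ANBL6, 0.545 in RPMI8226, 0.487 in U266 and 0.154 in ANBL6BR. Between their DMSO replicates it was from -0.252 in U266 to 0.14 in RPMI8226. In the other models rho with the I3MO change was between -0.157 and 0.132. With GC content and length fitted out of each library, ARP1 had 10 members higher and 2 lower. Of these 7 and 1 were called the same way without that correction. In ANBL6 1 of the 3 members called lower stayed called with that correction. In ANBL6BR, RPMI8226 and U266 every call was kept. Beside ARP1 values below, this fit is called the GC fit.

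Without ARP1 DMSO replicate 1, 10 members were called in ARP1, and without ARP1 I3MO replicate 1, 11. Calls of 10 members held without any 1 library (USP1, USP11, USP12, USP16, USP19, USP21, USP25, USP38, USP39 and USP40). The filter favoured the rise of USP40.

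**Figure D3:**
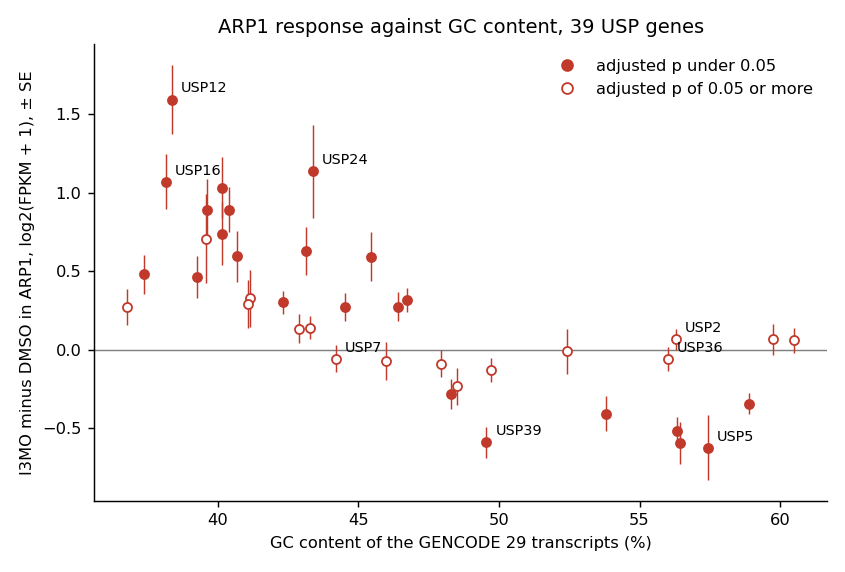
Change in ARP1, I3MO minus DMSO on the log2(FPKM + 1) scale (y axis, ± SE), against the GC content of the GENCODE 29 transcripts in percent (x axis), with 1 point for each of the 39 members, filled where the adjusted p is under 0.05. Low-GC members such as USP12 (1.59 at 38.4%) lie above 0, and high-GC members such as USP5 (-0.62 at 57.4%) below it.

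Of the 6 members that act on MDM2, p53 or chromatin factors, USP36 had the broadest rise. It is a nucleolar enzyme that stabilises MYC and factors of ribosomal RNA synthesis (ENSG00000055483.18, chromosome 17, 78787381 to 78841441, minus strand, hg38). U266 had 6.06 and 6.07 FPKM with I3MO against 2.76 and 2.77 FPKM with DMSO, a rise of 0.91 ± 0.08 (limma adjusted p = 3.35e-06). ANBL6BR had 3.94 and 4.22 FPKM with I3MO against 2.91 and 2.54 FPKM with DMSO, a rise of 0.45 ± 0.08 (limma adjusted p = 0.00160). RPMI8226 had 4.33 and 4.59 FPKM with I3MO against 3.37 and 3.19 FPKM with DMSO, a rise of 0.35 ± 0.08 (limma adjusted p = 0.00801). The groups overlapped in none of these 3 models. ANBL6 had 4.39 and 4.59 FPKM with I3MO against 5.04 and 5.45 FPKM with DMSO, a change of -0.18 (limma adjusted p = 0.164). ARP1 had 2.84 and 2.62 FPKM with I3MO against 3.12 and 2.67 FPKM with DMSO, a change of -0.06 (limma adjusted p = 0.638). The U266 and ANBL6BR calls held without any 1 library, and the RPMI8226 call was lost without RPMI8226 DMSO replicate 2 or RPMI8226 I3MO replicate 2 (highest limma adjusted p = 0.0716).

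USP28 protects MYC from its ligase FBXW7 (ENSG00000048028.10, chromosome 11, 113797874 to 113875570, minus strand, hg38). It had 2.70 and 2.46 FPKM in ANBL6BR I3MO libraries against 3.77 and 4.29 FPKM in ANBL6BR DMSO libraries, a change of -0.49 ± 0.09 (limma adjusted p = 0.00288), a call that held without any 1 library. ARP1 had 2.33 and 1.98 FPKM with I3MO against 1.6 and 1.62 FPKM with DMSO, a rise of 0.27 ± 0.09 (limma adjusted p = 0.0327), which was lost without ARP1 DMSO replicate 1, ARP1 DMSO replicate 2 or ARP1 I3MO replicate 1 (highest limma adjusted p = 0.247) and with the GC fit (0.08, limma adjusted p = 0.532). USP28 thus fell in ANBL6BR and rose in ARP1, and the test of equal responses passed (limma adjusted p = 0.00628).

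USP11, a nuclear enzyme tied to DNA repair, had 2.39 and 2.42 FPKM in ARP1 I3MO libraries against 4.22 and 4.03 FPKM in ARP1 DMSO libraries, a change of -0.59 ± 0.13 (limma adjusted p = 0.00407). With the GC fit it was -0.36 (limma adjusted p = 0.0649). USP10, which acts on cytoplasmic p53, had 3.24 to 7.74 FPKM in I3MO libraries against 3.40 to 9.22 FPKM in DMSO libraries, with changes from -0.09 to 0.05. Neither USP10 nor the p53 deubiquitinase USP42 was called in any model.

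Of the 3 members that recycle ubiquitin chains, USP13 fell in U266 and ANBL6BR. It is a paralogue of USP5 with roles in autophagy (ENSG00000058056.7, chromosome 3, 179652755 to 179789401, plus strand, hg38). U266 had 1.41 and 1.21 FPKM with I3MO against 3.12 and 3.26 FPKM with DMSO, a change of -0.86 ± 0.12 (limma adjusted p = 0.000216). ANBL6BR had 1.54 and 1.57 FPKM with I3MO against 2.76 and 3.27 FPKM with DMSO, a change of -0.65 ± 0.12 (limma adjusted p = 0.00306). Neither pair of groups overlapped, and both calls held without any 1 library. ANBL6 had 5.54 and 4.37 FPKM with I3MO against 5.47 and 5.6 FPKM with DMSO, a change of -0.14 (limma adjusted p = 0.569). RPMI8226 had 1.84 and 2.38 FPKM with I3MO against 2.95 and 2.32 FPKM with DMSO, a change of -0.22 (limma adjusted p = 0.282). ARP1 had 5.91 and 5.00 FPKM with I3MO against 5.92 and 5.61 FPKM with DMSO, a change of -0.07 (limma adjusted p = 0.753). The change was below 0 in 5 of 5 models, and across them it was -0.39 ± 0.14, limma adjusted p = 0.238.

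USP5, also called isopeptidase T, takes apart free ubiquitin chains. It had 16.1 and 18.2 FPKM in ARP1 I3MO libraries against 26.2 and 27.7 FPKM in ARP1 DMSO libraries, a change of -0.62 ± 0.21 (limma adjusted p = 0.0309), which was lost in each of the 4 fits without 1 library (highest limma adjusted p = 0.166). With the GC fit it was -0.35 (limma adjusted p = 0.237). In ANBL6BR the DMSO replicates lay far apart, with 12.3 and 12.1 FPKM with I3MO against 12.5 and 25.0 FPKM with DMSO. USP14 sits on the proteasome and trims chains from proteins about to be degraded. It had 19.3 and 20.8 FPKM in ANBL6BR I3MO libraries against 14.0 and 25.7 FPKM in ANBL6BR DMSO libraries, and passed in no model, with changes from -0.01 to 0.33.

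The 3 members that work with the cofactor WDR48, also called UAF1, were called higher in ARP1 and in no other model. Of all tested genes 23.1% were higher in ARP1. USP46 passed the filter only through the ARP1 I3MO libraries, so the filter favoured its rise. USP1, which removes ubiquitin from FANCD2 and PCNA, had 11 and 7.94 FPKM in ARP1 I3MO libraries against 3.69 and 5.62 FPKM in ARP1 DMSO libraries, a rise of 0.89 ± 0.19 (limma adjusted p = 0.00323). USP12 (ENSG00000152484.12, chromosome 13, 27066142 to 27171896, minus strand, hg38) had 14.0 and 10.4 FPKM with I3MO against 2.72 and 4.07 FPKM with DMSO there, a rise of 1.59 ± 0.22 (limma adjusted p = 0.00019). USP46, close in sequence to USP12, had 1.27 and 1.12 FPKM with I3MO against 0.710 and 0.854 FPKM with DMSO, a rise of 0.30 ± 0.07 (limma adjusted p = 0.00717). None of the 3 overlapped between the groups. With the GC fit USP12 (1.15, limma adjusted p = 0.000758) and USP1 (0.51, limma adjusted p = 0.0347) passed and USP46 did not (-0.05, limma adjusted p = 0.645).

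Of the 6 members that act on histones, USP51 and USP22 rose in U266. USP51 removes ubiquitin from H2A at sites of DNA damage (ENSG00000247746.4, chromosome X, 55484616 to 55489202, minus strand, hg38). It had 2.99 and 3.15 FPKM in U266 I3MO libraries against 1.12 and 1.06 FPKM in U266 DMSO libraries, a rise of 0.96 ± 0.09 (limma adjusted p = 1.15e-05), which held without any 1 library. The I3MO libraries of U266 lay above both DMSO libraries.

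USP22 is the H2B deubiquitinase of the SAGA complex (ENSG00000124422.10, chromosome 17, 20999593 to 21043760, minus strand, hg38). U266 had 15.6 and 15.5 FPKM with I3MO against 10.3 and 11.6 FPKM with DMSO, a rise of 0.47 ± 0.11 (limma adjusted p = 0.00622). ANBL6 had 8.71 and 7.61 FPKM with I3MO against 11.5 and 11.9 FPKM with DMSO, a change of -0.47 ± 0.11 (limma adjusted p = 0.0205). ARP1 had 21.7 and 20.4 FPKM with I3MO against 31.8 and 24.9 FPKM with DMSO, a change of -0.41 ± 0.11 (limma adjusted p = 0.0113). USP22 thus rose in U266 and fell in ANBL6 and ARP1 with no overlap of groups, and the test of equal responses passed (limma adjusted p = 0.00256). The U266 call was lost without U266 DMSO replicate 1 (highest limma adjusted p = 0.0637). The ANBL6 call was lost without ANBL6 DMSO replicate 1, ANBL6 DMSO replicate 2 or ANBL6 I3MO replicate 2 (highest limma adjusted p = 0.177). The ARP1 call was lost without ARP1 DMSO replicate 1 or ARP1 I3MO replicate 2 (highest limma adjusted p = 0.135) and with the GC fit (-0.22, limma adjusted p = 0.0875). Other annotated genes share 13.2% of its exon bases, and whether the counting used strand is not stated.

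USP21, an H2A deubiquitinase, fell in ARP1 and RPMI8226. ARP1 had 1.55 and 1.72 FPKM with I3MO against 2.91 and 2.61 FPKM with DMSO, a change of -0.51 ± 0.09 (limma adjusted p = 0.000832). RPMI8226 had 1.61 and 1.85 FPKM with I3MO against 2.84 and 2.62 FPKM with DMSO, a change of -0.45 ± 0.09 (limma adjusted p = 0.00472). With the GC fit the ARP1 change was -0.24 (limma adjusted p = 0.0725), and the RPMI8226 call was lost without RPMI8226 I3MO replicate 1 (highest limma adjusted p = 0.0608). USP16, which clears ubiquitin from H2A in mitosis, had 6.35 and 4.57 FPKM in ARP1 I3MO libraries against 1.61 and 2.57 FPKM in ARP1 DMSO libraries, a rise of 1.07 ± 0.18 (limma adjusted p = 0.000565), and passed with the GC fit (0.61, limma adjusted p = 0.00471). USP3 and USP49 passed in no model.

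Of the 3 members of the spliceosome group, USP39 fell in ARP1 and RPMI8226. It is part of the tri-snRNP and lacks catalytic activity. ARP1 had 4.80 and 5.29 FPKM with I3MO against 8.91 and 7.30 FPKM with DMSO, a change of -0.59 ± 0.10 (limma adjusted p = 0.000615), and passed with the GC fit (-0.43, limma adjusted p = 0.000694). RPMI8226 had 3.83 and 4.06 FPKM with I3MO against 5.12 and 5.38 FPKM with DMSO, a change of -0.34 ± 0.10 (limma adjusted p = 0.0362), which was lost in each of the 4 fits without 1 library (highest limma adjusted p = 0.197). The change of USP39 was below 0 in 5 of 5 models. USP4, a partner of the splicing factor SART3, had 1.51 and 1.52 FPKM in U266 I3MO libraries against 2.11 and 1.79 FPKM in U266 DMSO libraries, a change of -0.23 ± 0.08 (limma adjusted p = 0.0411), which was lost without U266 DMSO replicate 1, U266 I3MO replicate 1 or U266 I3MO replicate 2 (highest limma adjusted p = 0.304). Its paralogue USP15 had 1.72 and 1.31 FPKM in ARP1 I3MO libraries against 0.595 and 1.03 FPKM in ARP1 DMSO libraries, a rise of 0.48 ± 0.12 (limma adjusted p = 0.00855), and with the GC fit 0.02 (limma adjusted p = 0.822).

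Of 5 members of receptor and organelle traffic, USP20 rose in 2 models and fell in 1. It recycles the beta-2 adrenergic receptor together with its paralogue USP33 (ENSG00000136878.11, chromosome 9, 129834698 to 129881838, plus strand, hg38). RPMI8226 had 4.10 and 4.29 FPKM with I3MO against 2.82 and 2.99 FPKM with DMSO, a rise of 0.41 ± 0.08 (limma adjusted p = 0.00411), which held without any 1 library. ANBL6BR had 3.81 and 4.45 FPKM with I3MO against 3.17 and 3.39 FPKM with DMSO, a rise of 0.26 ± 0.08 (limma adjusted p = 0.0411). ANBL6 had 4.08 and 3.63 FPKM with I3MO against 5.08 and 5.26 FPKM with DMSO, a change of -0.35 ± 0.08 (limma adjusted p = 0.0210). The groups overlapped in none of these models. The ANBL6BR call was lost without ANBL6BR DMSO replicate 1, ANBL6BR DMSO replicate 2 or ANBL6BR I3MO replicate 2 (highest limma adjusted p = 0.340). The ANBL6 call was lost without ANBL6 DMSO replicate 1, ANBL6 DMSO replicate 2 or ANBL6 I3MO replicate 2 (highest limma adjusted p = 0.177).

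USP19 is anchored in the endoplasmic reticulum. It had 4.13 and 3.83 FPKM in ANBL6 I3MO libraries against 4.68 and 5.01 FPKM in ANBL6 DMSO libraries, a change of -0.23 ± 0.06 (limma adjusted p = 0.0486), which was lost in each of the 4 fits without 1 library (highest limma adjusted p = 0.295). ARP1 had 2.29 and 2.47 FPKM with I3MO against 3.35 and 3.21 FPKM with DMSO, a change of -0.34 ± 0.06 (limma adjusted p = 0.00139), and with the GC fit -0.13 (limma adjusted p = 0.124). USP8, an endosomal enzyme that acts on growth factor receptors, had 1.41 and 1.01 FPKM in ARP1 I3MO libraries against 0.348 and 0.573 FPKM in ARP1 DMSO libraries, a rise of 0.59 ± 0.16 (limma adjusted p = 0.0134), and with the GC fit 0.23 (limma adjusted p = 0.134). USP32 and USP33 were called higher in ARP1 too, but not with the GC fit (USP32 0.43, limma adjusted p = 0.0530; USP33 0.01, limma adjusted p = 0.952). USP32 has a near copy in USP6, so its level is uncertain. USP30, the enzyme of the outer mitochondrial membrane that opposes parkin, had 0.566 and 0.610 FPKM in ARP1 I3MO libraries against 1.10 and 0.776 FPKM in ARP1 DMSO libraries, a change of -0.28 ± 0.10 (limma adjusted p = 0.0355), which was lost without ARP1 DMSO replicate 1, ARP1 I3MO replicate 1 or ARP1 I3MO replicate 2 (highest limma adjusted p = 0.305) and with the GC fit (-0.22, limma adjusted p = 0.108).

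Of 7 members of signalling pathways, 5 rose in ARP1 and 2 fell in U266, where 23.1% of all tested genes rose in ARP1 and 15.8% fell in U266. USP24 had 6.5 and 4.27 FPKM in ARP1 I3MO libraries against 1.48 and 2.30 FPKM in ARP1 DMSO libraries, a rise of 1.14 ± 0.29 (limma adjusted p = 0.00936), which was lost without ARP1 DMSO replicate 1 or ARP1 I3MO replicate 1 (highest limma adjusted p = 0.0983) and passed with the GC fit (0.85, limma adjusted p = 0.0246). USP25 had 3.17 and 2.31 FPKM in ARP1 I3MO libraries against 0.737 and 1.31 FPKM in ARP1 DMSO libraries, a rise of 0.89 ± 0.14 (limma adjusted p = 0.000474), and passed with the GC fit (0.46, limma adjusted p = 0.00402). USP31, USP47 and USP48 were the other 3 that rose, and none of them passed with the GC fit (USP31 0.18, limma adjusted p = 0.0829; USP47 0.30, limma adjusted p = 0.156; USP48 as given next).

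USP48, which acts on the NF-kB subunit RELA, went in opposite directions. U266 had 3.31 and 1.97 FPKM with I3MO against 4.47 and 4.44 FPKM with DMSO, a change of -0.61 ± 0.15 (limma adjusted p = 0.00963), which was lost without U266 DMSO replicate 1 or U266 I3MO replicate 2 (highest limma adjusted p = 0.0843). ARP1 had 4.05 and 3.62 FPKM with I3MO against 1.75 and 2.56 FPKM with DMSO, a rise of 0.63 ± 0.15 (limma adjusted p = 0.00608), and with the GC fit 0.32 (limma adjusted p = 0.0840). The test of equal responses passed (limma adjusted p = 0.00697). USP2, which stabilises cyclin D1, had 3.36 and 3.04 FPKM in U266 I3MO libraries against 3.83 and 4.14 FPKM in U266 DMSO libraries, a change of -0.25 ± 0.07 (limma adjusted p = 0.0161), which was lost without U266 DMSO replicate 2 or U266 I3MO replicate 2 (highest limma adjusted p = 0.131). USP34, an axin deubiquitinase of the WNT pathway, passed in no model. Other annotated genes share 23.0% of the exon bases of USP31, 18.0% of USP34 and 17.5% of USP2. Outside the signalling group they share 32.8% of those of USP37 and 22.7% of those of USP3.

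USP37, the cyclin A deubiquitinase and only cell cycle member, passed in no model, at 0.0768 to 0.895 FPKM in I3MO libraries against 0.0974 to 1.20 FPKM in DMSO libraries. Of 4 members with no role stated here, USP35 and USP40 rose in U266. USP35 had 2.58 and 1.85 FPKM in U266 I3MO libraries against 1.15 and 1.11 FPKM in U266 DMSO libraries, a rise of 0.58 ± 0.10 (limma adjusted p = 0.000703), which held without any 1 library. USP40 had 1.25 and 1.01 FPKM with I3MO against 0.722 and 0.736 FPKM with DMSO, a rise of 0.30 ± 0.08 (limma adjusted p = 0.0124), which was lost without U266 DMSO replicate 1, U266 DMSO replicate 2 or U266 I3MO replicate 1 (highest limma adjusted p = 0.0783). In ARP1 USP38 had 6.42 and 4.96 FPKM with I3MO against 1.97 and 2.57 FPKM with DMSO, a rise of 1.03 ± 0.19 (limma adjusted p = 0.00137), and passed with the GC fit (0.60, limma adjusted p = 0.0130). USP40 had 1.01 and 1.02 FPKM with I3MO against 0.683 and 0.551 FPKM with DMSO there, a rise of 0.32 ± 0.08 (limma adjusted p = 0.00618), and passed with the GC fit (0.24, limma adjusted p = 0.0466). It passed the filter only through the I3MO libraries of U266 and ARP1, so the filter favoured both rises.

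**Figure D4:**
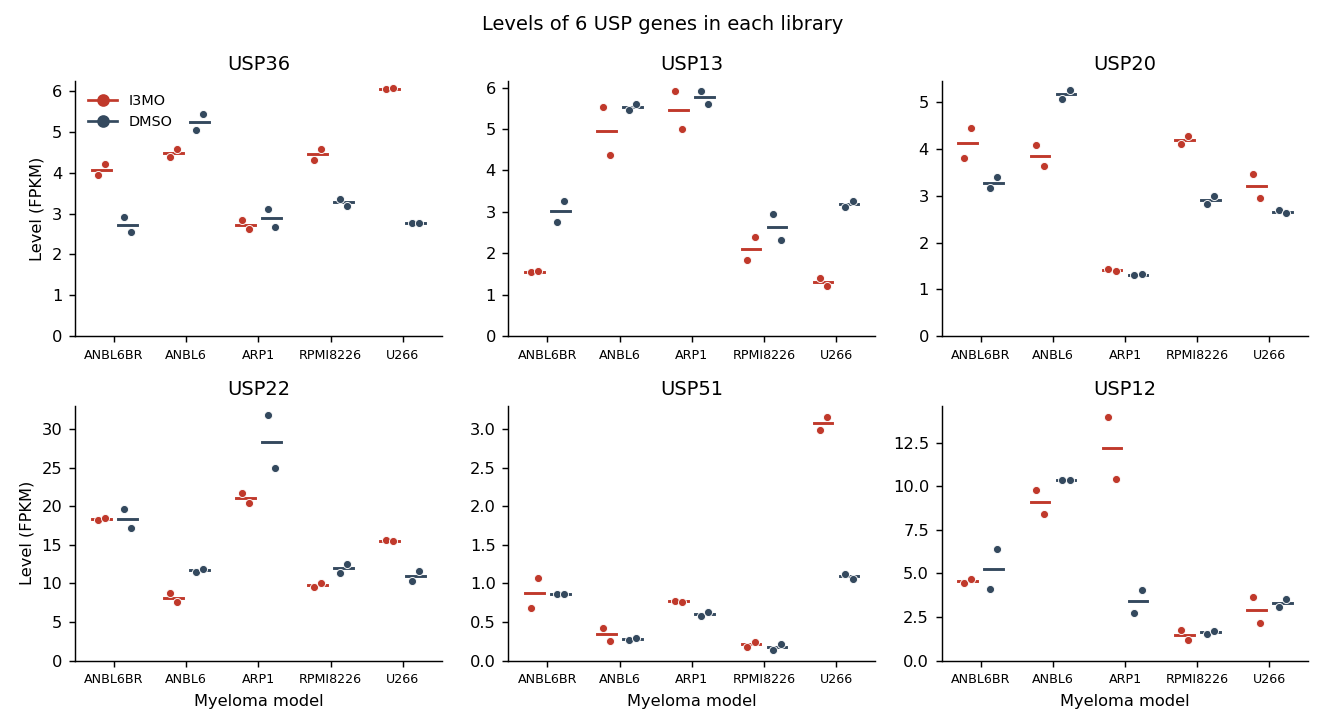
Level in FPKM (y axis) of USP36, USP13, USP20, USP22, USP51 and USP12 by myeloma model (x axis), I3MO left of DMSO, with each point 1 library and each line the mean of 2 libraries. USP36 is higher with I3MO in ANBL6BR, RPMI8226 and U266, USP13 is lower in ANBL6BR and U266, and USP12 reaches 14.0 and 10.4 FPKM in ARP1 I3MO libraries.

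ANBL6BR, the form labelled resistant, was compared with wild-type ANBL6 in DMSO. Of the 39 members 24 were called (61.5%, against 51.8% of all tested genes), 13 higher and 11 lower in ANBL6BR, where 27.0% of all tested genes were higher and 24.8% lower. The median difference was 0.11 for the members and 0.00 for all tested genes. Calls of 18 members held without any 1 library. ANBL6BR DMSO replicate 2 lay above replicate 1 for 27 of the 39 members.

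USP2 had 0.0255 and 0.0192 FPKM in ANBL6BR against 2.75 and 2.56 FPKM in ANBL6, from 4 and 3 fragments in ANBL6BR against 432 and 402 in ANBL6, a difference of -1.84 ± 0.07, limma adjusted p = 1.62e-10. USP28 had 3.77 and 4.29 FPKM in ANBL6BR against 1.26 and 1.5 FPKM in ANBL6, a difference of 1.08 ± 0.09, limma adjusted p = 5.15e-07. USP47, a paralogue of USP7, had 3.34 and 5.55 FPKM in ANBL6BR against 1.68 and 1.74 FPKM in ANBL6, a difference of 0.98 ± 0.20, limma adjusted p = 0.00113. These 3 members did not overlap between the models, and their calls held without any 1 library.

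USP14 had 14.0 and 25.7 FPKM in ANBL6BR against 10.4 and 10.8 FPKM in ANBL6, a difference of 0.79 ± 0.18, limma adjusted p = 0.00252, which ranged from 0.37 to 1.20 without 1 library. USP48 had 12.2 and 11.7 FPKM in ANBL6BR against 6.57 and 6.63 FPKM in ANBL6, a difference of 0.77 ± 0.15, limma adjusted p = 0.000822. USP16 had 11.1 and 12.3 FPKM in ANBL6BR against 6.94 and 7.02 FPKM in ANBL6, a difference of 0.67 ± 0.18, limma adjusted p = 0.00600. All 3 were higher in both ANBL6BR libraries than in either ANBL6 library.

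Lower in ANBL6BR beside USP2 and USP7 were USP12, USP36 and USP13. USP12 had 4.08 and 6.39 FPKM in ANBL6BR against 10.4 and 10.4 FPKM in ANBL6, a difference of -0.89 ± 0.22, limma adjusted p = 0.00433, which was lost without ANBL6BR DMSO replicate 1 (highest limma adjusted p = 0.0556). USP36 had 2.91 and 2.54 FPKM in ANBL6BR against 5.04 and 5.45 FPKM in ANBL6, a difference of -0.74 ± 0.08, limma adjusted p = 3.00e-06. USP13 had 2.76 and 3.27 FPKM in ANBL6BR against 5.47 and 5.6 FPKM in ANBL6, a difference of -0.70 ± 0.12, limma adjusted p = 0.000302. None of the 3 overlapped. USP5 had 12.5 and 25.0 FPKM in ANBL6BR against 16.4 and 17.4 FPKM in ANBL6 and USP1 27.5 and 30.9 FPKM in ANBL6BR against 22.1 and 23.3 FPKM in ANBL6, and neither passed (limma adjusted p = 0.865 and 0.155).

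The counts by role are to be read against 27.0% of all tested genes higher and 24.8% lower, and these small groups were not tested as sets. Of the histone enzymes 4 of 6 (USP16, USP21, USP22 and USP51) were higher in ANBL6BR and 0 lower. Of the traffic enzymes 3 of 5 (USP19, USP20 and USP33) were lower and 0 higher. Of the p53 and chromatin group 3 of 6 (USP11, USP28 and USP42) were higher and 2 (USP7 and USP36) lower. Of the WDR48 partners 2 of 3 (USP12 and USP46) were lower, and of the signalling group 4 of 7 were higher and 1 (USP2) lower. The calls of USP12, USP25, USP33, USP37, USP42 and USP46 were lost in at least 1 of the 4 fits without 1 library.

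**Figure D5:**
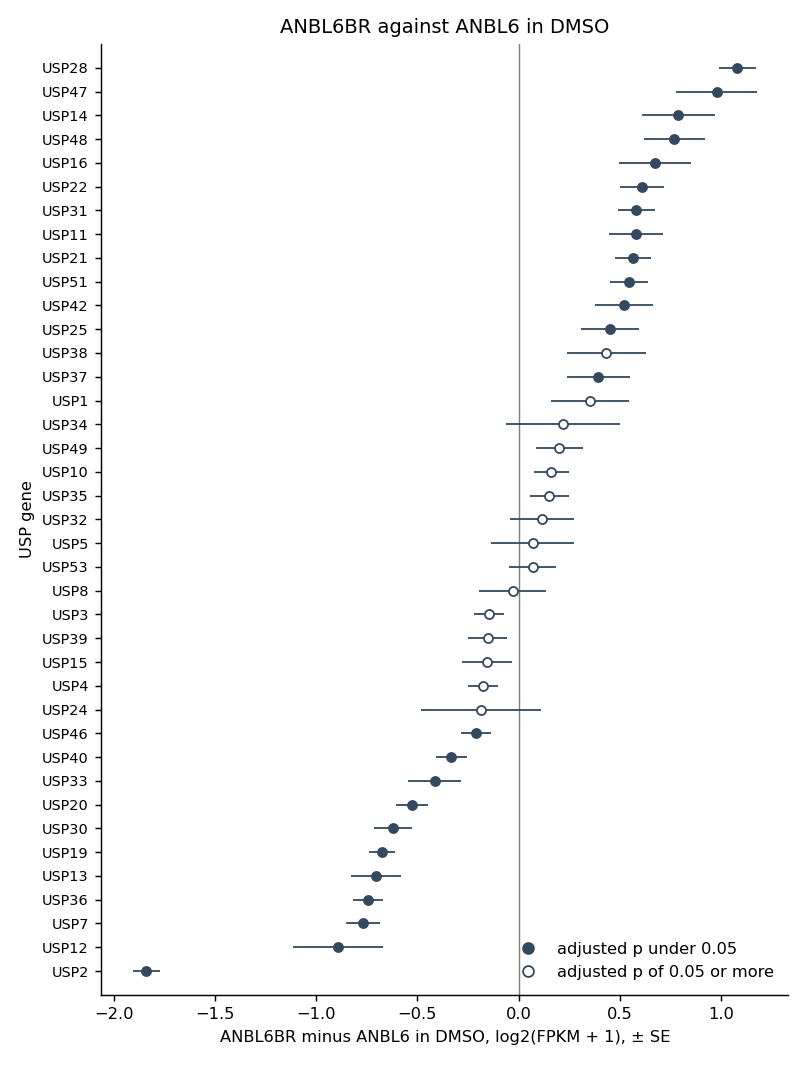
Difference in DMSO, ANBL6BR minus ANBL6 on the log2(FPKM + 1) scale (x axis, ± SE), of the 39 members (rows), filled where the adjusted p is under 0.05. USP28 is farthest to the right at 1.08 and USP2 farthest to the left at -1.84.

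The I3MO response differed between ANBL6BR and ANBL6 for 3 members (7.69%, against 8.47% of all tested genes), each with the higher response in ANBL6BR, as in 4.14% of all tested genes. For USP36 the difference of responses was 0.63 ± 0.11, limma adjusted p = 0.00473, with a change of 0.45 in ANBL6BR and -0.18 in ANBL6. For USP20 it was 0.60 ± 0.11, limma adjusted p = 0.00781, with a change of 0.26 in ANBL6BR and -0.35 in ANBL6. Both calls held in all 8 fits without 1 library. For USP31 it was 0.46 ± 0.13, limma adjusted p = 0.0466, called in 2 of 8 such fits. ANBL6BR had 6.00 and 6.01 FPKM with I3MO against 5.05 and 4.78 FPKM with DMSO, and ANBL6 had 2.57 and 2.25 FPKM with I3MO against 2.96 and 2.95 FPKM with DMSO. With the GC fit 2 members were higher and 1 lower. USP13, with a change of -0.65 in ANBL6BR and -0.14 in ANBL6, did not pass (-0.51 ± 0.17, limma adjusted p = 0.0912).

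In DMSO 39 of 39 members differed among the 5 models, against 90.0% of all tested genes. ANBL6BR was the highest model for 14 members and RPMI8226 the lowest for 20. On the log2(FPKM + 1) scale the widest span was that of USP24, a difference of 2.49, and the narrowest that of USP40, at 0.38. USP24 had 10.0 and 10.6 FPKM in ANBL6 and 1.20 and 0.842 FPKM in RPMI8226. The added 1 shrinks differences at low FPKM, so this order is not an order of folds. USP2 had 3.83 and 4.14 FPKM in U266 against 0.0255 and 0.0192 FPKM in ANBL6BR, a difference of 2.285. Per merged exon length, the summed level of the members was 526 and 639 FPKM in ANBL6BR DMSO libraries and 339 and 336 FPKM in RPMI8226 DMSO libraries. On that scale USP5 had the highest level of the 39 in ARP1, RPMI8226 and U266 with DMSO, at 80.8 ± 3.22, 69.3 ± 2.57 and 53.7 ± 2.39 FPKM, and USP1 in ANBL6BR with 60.8 ± 4.98 FPKM (SD, n = 2 each).

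Genes that work with or beside the family are given by their counts of called genes, to be read against these shares. Of all tested genes 10.5% were higher and 15.8% lower in U266, 10.0% and 8.4% in ANBL6BR, 4.1% and 3.87% in ANBL6, 6.19% and 8.62% in RPMI8226, and 23.1% and 13.9% in ARP1. The 11 tested substrates of USP7 had 0 higher and 7 lower in U266, 0 higher and 7 lower in ANBL6BR, 0 higher and 3 lower in ANBL6, 2 higher and 4 lower in RPMI8226 and 5 higher and 4 lower in ARP1. The median change of the list was -0.77 in U266 and -0.39 in ANBL6BR. UHRF1, a partner of the DNA methyltransferase DNMT1, had 0.940 and 1.20 FPKM with I3MO against 7.29 and 7.46 FPKM with DMSO (-2.02 ± 0.10, limma adjusted p = 6.79e-08) in U266. CDC25A, a cell cycle phosphatase, had 2.04 and 2.45 FPKM with I3MO against 8.62 and 8.26 FPKM with DMSO (-1.54 ± 0.11, limma adjusted p = 1.12e-06) in U266, and it was higher in RPMI8226 (15.0 and 15.1 FPKM with I3MO against 11 and 10.7 FPKM with DMSO, 0.44, limma adjusted p = 0.0205). MDM2 had 1.83 and 1.43 FPKM with I3MO against 0.693 and 1.04 FPKM with DMSO (0.50 ± 0.14, limma adjusted p = 0.0167) in ARP1, and 1.04 and 0.535 FPKM with I3MO against 2.41 and 2.57 FPKM with DMSO (-0.98 ± 0.14, limma adjusted p = 0.000291) in U266, a direction opposite to that in ARP1. These are RNA levels and not protein levels.

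The 12 cofactors and partners had 2 higher and 3 lower in U266, 0 higher and 3 lower in ANBL6BR, 0 higher and 1 lower in ANBL6, 1 higher and 1 lower in RPMI8226 and 3 higher and 1 lower in ARP1. GMPS, a GMP synthase that binds USP7, had 5.44 and 5.20 FPKM with I3MO against 8.72 and 9.40 FPKM with DMSO (-0.67 ± 0.06, limma adjusted p = 5.69e-06) in U266, and it was higher in ARP1 (9.67 and 9.61 FPKM with I3MO against 7.30 and 7.67 FPKM with DMSO, 0.33, limma adjusted p = 0.00112). WDR48 had 1.41 and 1.5 FPKM with I3MO against 2.72 and 2.78 FPKM with DMSO (-0.61 ± 0.13, limma adjusted p = 0.00674) in ANBL6BR. The ligase TRIP12 had 6.36 and 5.16 FPKM with I3MO against 2.13 and 3.30 FPKM with DMSO (0.87 ± 0.24, limma adjusted p = 0.0114) in ARP1. DMWD, a partner of USP12 and USP46, had 9.86 and 8.19 FPKM with I3MO against 5.78 and 6.51 FPKM with DMSO (0.48 ± 0.10, limma adjusted p = 0.00236) in U266.

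Deubiquitinases outside the name rule also changed. The 4 tested relatives of the family had 1 higher and 0 lower in U266, 1 higher and 0 lower in ANBL6BR, 0 higher and 0 lower in ANBL6, 0 higher and 0 lower in RPMI8226 and 2 higher and 0 lower in ARP1. USP9X had 6.66 and 4.78 FPKM with I3MO against 1.19 and 2.09 FPKM with DMSO (1.36 ± 0.26, limma adjusted p = 0.00152) in ARP1. USPL1, which cuts SUMO, had 5.57 and 3.83 FPKM with I3MO against 1.29 and 2.07 FPKM with DMSO (1.09 ± 0.17, limma adjusted p = 0.000381) in ARP1. The 4 UCH proteases had 0 higher and 0 lower in U266, 2 higher and 0 lower in ANBL6BR, 0 higher and 0 lower in ANBL6, 1 higher and 0 lower in RPMI8226 and 1 higher and 0 lower in ARP1. UCHL5, which sits on the proteasome, had 6.80 and 5.85 FPKM with I3MO against 2.11 and 2.79 FPKM with DMSO (1.09 ± 0.09, limma adjusted p = 5.39e-06) in ARP1. UCHL3 had 2.53 and 2.30 FPKM with I3MO against 1.80 and 1.22 FPKM with DMSO (0.45 ± 0.10, limma adjusted p = 0.00862) in ANBL6BR.

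The 13 tested OTU proteases had 0 higher and 1 lower in U266, 0 higher and 2 lower in ANBL6BR, 0 higher and 1 lower in ANBL6, 0 higher and 1 lower in RPMI8226 and 6 higher and 3 lower in ARP1. OTUD5 had 20.4 and 19.3 FPKM with I3MO against 63.0 and 63.2 FPKM with DMSO (-1.62 ± 0.10, limma adjusted p = 2.83e-07) in U266. TNFAIP3, an inhibitor of NF-kB, had 1.27 and 1.14 FPKM with I3MO against 3.64 and 2.89 FPKM with DMSO (-0.95 ± 0.23, limma adjusted p = 0.00652) in ARP1. VCPIP1, which works with the ATPase VCP, had 5.44 and 3.75 FPKM with I3MO against 1.21 and 1.82 FPKM with DMSO (1.15 ± 0.24, limma adjusted p = 0.00254) in ARP1. YOD1, another partner of VCP, had 2.85 and 1.92 FPKM with I3MO against 0.526 and 0.746 FPKM with DMSO (1.04 ± 0.14, limma adjusted p = 0.000132) there.

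The 6 tested genes of a list of Josephin and MINDY proteases that also holds ZUP1 had 1 higher and 1 lower in U266, 1 higher and 0 lower in ANBL6BR, 0 higher and 0 lower in ANBL6, 1 higher and 0 lower in RPMI8226 and 4 higher and 0 lower in ARP1. ZUP1 had 4.23 and 3.71 FPKM with I3MO against 1.09 and 2.07 FPKM with DMSO (0.97 ± 0.17, limma adjusted p = 0.000824) in ARP1. JOSD1 had 38.0 and 44.3 FPKM with I3MO against 25.7 and 24.5 FPKM with DMSO (0.69 ± 0.10, limma adjusted p = 0.000334) in U266. MINDY3 had 2.48 and 2.18 FPKM with I3MO against 3.75 and 3.94 FPKM with DMSO (-0.54 ± 0.08, limma adjusted p = 0.000458) in U266, and it was higher in ARP1 (2.80 and 2.36 FPKM with I3MO against 1.85 and 2.21 FPKM with DMSO, 0.24, limma adjusted p = 0.0413). The 9 JAMM metalloproteases had 2 higher and 0 lower in U266, 2 higher and 0 lower in ANBL6BR, 1 higher and 1 lower in ANBL6, 0 higher and 1 lower in RPMI8226 and 4 higher and 1 lower in ARP1. BRCC3, of the BRCA1-A complex, had 2.56 and 1.98 FPKM with I3MO against 0.491 and 0.869 FPKM with DMSO (0.96 ± 0.18, limma adjusted p = 0.00116) in ARP1. MYSM1, a histone H2A deubiquitinase, had 1.76 and 0.869 FPKM with I3MO against 0.249 and 0.508 FPKM with DMSO (0.73 ± 0.24, limma adjusted p = 0.0309) in ARP1. PRPF8, a spliceosome core protein with an inactive JAMM domain, had 19.1 and 15.6 FPKM with I3MO against 38.2 and 30.6 FPKM with DMSO (-0.94 ± 0.15, limma adjusted p = 0.000443) in ARP1 and 5.16 and 3.96 FPKM with I3MO against 6.82 and 7.51 FPKM with DMSO (-0.56 ± 0.15, limma adjusted p = 0.0392) in ANBL6.

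The 6 ubiquitin genes and E1 enzymes had 0 higher and 1 lower in U266, 0 higher and 2 lower in ANBL6BR, 1 higher and 0 lower in ANBL6, 0 higher and 0 lower in RPMI8226 and 1 higher and 2 lower in ARP1. UBB, a polyubiquitin gene, had 5.81 and 7.88 FPKM with I3MO against 15.8 and 20.7 FPKM with DMSO (-1.30 ± 0.15, limma adjusted p = 4.56e-05) in ARP1. The E1 enzyme UBA6 had 3.68 and 2.55 FPKM with I3MO against 0.910 and 1.85 FPKM with DMSO (0.80 ± 0.24, limma adjusted p = 0.0176) in ARP1. RPS27A, which encodes ubiquitin fused to a ribosomal protein, had 27.2 and 30.0 FPKM with I3MO against 18.7 and 18.5 FPKM with DMSO (0.60 ± 0.13, limma adjusted p = 0.0181) in ANBL6. The ARP1 values of these lists stand beside the relation of ARP1 to GC content given above, whose part in them was not tested.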

How the data were processed

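The authors deposited FPKM values per gene for 20 libraries, as 20 single tables and a joint table with the same values. Trimmomatic 0.32 and 0.36, STAR, SAMtools and hg38 are named per the submitters' processing notes; the counting tool and annotation are not given in the sources used here. For 99.9% of 2820 genes of the same version in GENCODE 29, the length behind the deposited FPKM was the sum of all transcripts' exons. Exons were counted once per transcript, so levels of genes with many transcripts are understated. Fragment counts were recovered from the FPKM steps (member fragments whole within 0.0004, totals 12.11 to 20.31 M); no intervals were computed.

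Genes with at least 1 FPKM in 2 libraries (15687) were tested on log2(FPKM + 1) by limma 3.58.1 (R 4.3.3); the model fitted 10 group means to the 20 libraries together, let the variance prior follow intensity, and gave two-sided p adjusted by Benjamini-Hochberg over these genes. The response across models used model as a block. The scripts were tested on simulated data. GC content came from GENCODE 29. Alternatives were another pseudocount (0.1), no filter, median-ratio scaling, the comparison's libraries only and a replicate block. Others were merged exon lengths, no trend and leaving out each library. A call said to hold or to be lost without 1 library refers to the libraries of its own comparison. The GC and length fit (a spline with 4 degrees of freedom per library) and limma voom on recovered fragments were chosen after seeing the data. Members and lists were chosen with earlier results of these data known. Named were USP7, USP1, USP5 and USP14, all called members up to 10 in a comparison or otherwise the 5 largest rises and 5 largest falls, members called in 3 models, those of smallest joint p per role and, of other lists, called genes with the 2 largest changes each way, some of which are not reported here. Other genes named were chosen after their values were seen.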

Additional observations from a re-analysis of the deposited data

Results flagged for a closer look

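The I3MO response of 3 members (7.69%, against 8.47% of all tested genes) differed between ANBL6BR and ANBL6 in a test of that difference, with limma p adjusted over all genes under 0.05. The difference, ANBL6BR minus ANBL6, was 0.63 for USP36, 0.60 for USP20 and 0.46 for USP31 on the log2(FPKM + 1) scale. USP31 was called in 2 of 8 fits without 1 library, and with only the libraries of the comparison limma called 0 of the 39 members (9 at an unadjusted p under 0.05). Unequal I3MO responses among the 5 models were called for 23 of the 39 members by the joint limma test, where 44.5% of all tested genes were called. The count was 6 with the replicate block and 13 with GC content and length fitted out.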

How the results depend on the processing

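With only the libraries of the comparison in the fit, limma called 0 members in ANBL6, ANBL6BR and ARP1 and for the difference of responses (6, 7, 21 and 9 at an unadjusted p under 0.05), 2 in RPMI8226 and 2 in U266, and the USP7 change in U266 was -0.59 (limma adjusted p = 0.0730); fewer libraries leave fewer degrees of freedom. With GC content and length fitted out, 1 was called in ANBL6, 7 in ANBL6BR, 12 in ARP1 and 13 for unequal responses, USP7 in ARP1 was -0.30, and USP46 in ARP1 turned to -0.049. With median-ratio scaling USP7 in ARP1 was -0.32. The cause was not tested. Replicate numbers carried little shared deviation (r of same-numbered deviations from -0.113 in ARP1 to 0.0342 in ANBL6BR). With 2 libraries per group such values cannot show whether replicate numbers paired the samples. With them as a replicate block 0 were called in ANBL6 (4 at an unadjusted p under 0.05) and 6 for unequal responses, and 3 in ANBL6BR, 18 in ARP1, 3 in RPMI8226, 7 in U266 and 2 for the difference of responses.

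Leaving out each library in turn, the members called ranged from 0 to 2 in ANBL6, 3 to 6 in ANBL6BR, 10 to 22 in ARP1, 2 to 3 in RPMI8226, 6 to 12 in U266, 20 to 22 for ANBL6BR against ANBL6, 2 to 6 for the difference of responses, 13 to 28 for unequal responses, 38 to 39 for unequal DMSO levels and 0 to 0 across models, and 6 to 7 pairs for USP7. Only fits without a library of the comparison itself are counted here, each with 1 group left at 1 library. The USP7 change then ranged from -0.20 to -0.15 in ANBL6, -0.19 to -0.08 in ANBL6BR and -0.12 to 0.0021 in ARP1. In ARP1 it lay above 0 without ARP1 DMSO replicate 1. It ranged from -0.29 to -0.11 in RPMI8226, -0.70 to -0.49 in U266 and -0.82 to -0.71 for ANBL6BR against ANBL6. Of 292 values of single members without 1 library 208 kept their call, 84 lost it and 0 turned; of 605 under other alternatives 489 kept it, 115 lost it and 1 turned.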
